A study of Mus musculus with 14 samples.

Results

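The genes of cell-cell junctions described here are 37 of the 45777 genes in the deposited count tables, chosen by name: 16 claudins, 7 other tight junction proteins, 6 desmosomal cadherins, 6 proteins of the desmosomal plaque and the classical cadherins Cdh1 and Cdh3. The plaque list includes Perp, though it is a membrane protein of desmosomes. The 37 genes were measured by bulk RNA-seq in 14 libraries of mouse salivary gland in 7 groups of 2. Organoids of the parotid gland (PG), the sublingual gland (SLG) and the submandibular gland (SMG) were kept in a differentiation-accelerating medium (DAM), further SMG organoids in a growth expansion medium (GEM), and the glands themselves were taken as tissue. All libraries came from wild-type C57BL/6 mice, and the study used females of 6 to 8 weeks. The GEM held 10 μM of the ROCK inhibitor Y-27632, while the DAM had no Y-27632 and held 5 μM of the Notch pathway inhibitor DAPT, and organoid labels give 3 days in the medium. The paper describes a phase in the GEM before the DAM, so a longer culture of organoids in DAM cannot be told apart from the change of medium. The organoids grew in Matrigel, an extracellular matrix gel, and were grown from digested gland. Labels name the source of every sample as epithelial cells, but the tissue held markers of vessels, stroma and immune cells.

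Tight junctions seal the space between neighbouring epithelial cells near their apical surface. Claudins are small membrane proteins that span the membrane several times and form the strands of the junction, and the claudins that a cell makes set which ions and how much water pass between cells, so that some of them close the path and others open a channel through it. Desmosomes are spot-like junctions that resist pulling forces. Their cadherins, the desmogleins and desmocollins, bind across the gap between cells, and plakoglobin, plakophilins and desmoplakin tie them to the keratin filaments inside. In a salivary gland the acini pass water and sodium between their cells into primary saliva, and the ducts are far tighter.

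Organoid libraries held 56383651 to 69139767 counts and tissue libraries 57397998 to 71367044. The 10 genes with the most counts took 7.37% to 9.07% of the counts of organoids and 47.0% to 80.2% of those of tissue. Levels are therefore given as CPM, a read count divided by a library size after TMM scaling of all 14 libraries. TMM takes most genes as equal between libraries. The size sums only genes above 0 in all 14 libraries, which leaves out many counts of tissue. In PG tissue replicate 1 the scaled size was 20527832, against 71367044 counts in the whole library. In PG organoid 1 it was 69915643, against 59772270 counts. CPM values are thus not shares of a whole library, and those of tissue lie above such shares. Tests used edgeR's quasi-likelihood test, fitted on the whole tables. To be called, a gene had to change by more than 1 on the log2 scale in either direction at an adjusted p (Benjamini-Hochberg) below 0.05. Genes with 0 counts in a library of the model were left out of these tests, so 29 of the 37 members were tested among organoids, 28 among tissues and 27 between organoids and tissue. Of the 10 left out there, edgeR's own filter kept 7. These passed it through the groups where they are high, so calls made with it add no support, and their levels are given below instead. The design calls the 2 libraries of a group biological replicates without saying which mice or cultures they came from, so the spread behind each p is that between these libraries. Scaling by totals of whole libraries moved the median of all genes in organoids over tissue by 2.0 (PG), 1.11 (SLG) and 2.06 (SMG) on the log2 scale, and the members more than 1 above that median numbered 16, 12 and 14, counts that a change of scaling cannot alter. Organoids and tissue came in separate tables, and a difference of preparation between them cannot be told apart from one of expression. In bulk samples fewer cells of a type and less RNA per cell cannot be told apart either.

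A single tissue library stood apart, by parotid genes that were picked for this after their values were seen. Amy1, the amylase of parotid acini, was at 326027 and 337458 CPM in PG tissue, at 17920.4 and 15.3 CPM in SLG tissue replicates 1 and 2 and at 18.8 and 17.9 CPM in SMG tissue. SLG tissue replicate 1 was thus at 5.4% of the PG level and replicate 2 at 0.00461%, and for Dnase1, a second gene high in parotid, these shares were 5.24% and 0.00184%. Leaving out replicate 1 moved no tested member by more than 0.29 on the log2 scale in the 3 comparisons that use SLG tissue, and the calls it changed, 1 between SLG organoids and SLG tissue, 4 between PG and SLG tissue and 1 between SLG and SMG tissue, are named with those comparisons. Of the cell type markers, 7 genes of endothelium summed to 0.713 to 1.27 CPM in organoids and to 56.0 to 188 CPM in tissue, and 5 fibroblast genes to 0.754 to 1.74 CPM in organoids and to 173 to 591 CPM in tissue. The basal duct cell keratin Krt5 was at 3655 and 3619.9 CPM in PG organoids, 2120.1 and 2115 in SLG organoids and 5228 and 4647 in SMG organoids in DAM, and at 20.4 and 19.2 CPM in PG tissue, 37.2 and 45.5 in SLG tissue and 39.6 and 39.4 in SMG tissue. Acinar Bhlha15 was at 7.81 and 10.96 CPM in PG organoids, 6.74 and 5.83 in SLG organoids and 0.852 and 0.941 in SMG organoids, and at 1177 and 1119 CPM in PG tissue, 432 and 404 in SLG tissue and 935 and 915 in SMG tissue.

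All claudins share a signature in the first loop outside the cell, glycine or asparagine, leucine and tryptophan followed by a pair of cysteines. A script found it in the longest reading frame of a GENCODE M21 transcript of each of the 16 member claudins and of Cldn24, 17 of 17 in all. The coding bases from that first residue to the second cysteine are shown for the 7 claudins that the results turn on, with the codons of the signature in capitals. The genes lie at chr5:134945123-134946934 (Cldn4), chr5:134986214-134987476 (Cldn3), chr11:69964779-69967886 (Cldn7), chrX:139800808-139811386 (Cldn2), chr14:118787871-118874525 (Cldn10) and chr8:47824482-47825475 (Cldn22) on GRCm38.p6 by RefSeq, with Cldn24 next to Cldn22.
Cldn4: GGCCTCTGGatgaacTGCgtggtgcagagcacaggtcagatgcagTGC
Cldn3: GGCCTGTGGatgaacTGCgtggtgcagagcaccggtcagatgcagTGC
Cldn7: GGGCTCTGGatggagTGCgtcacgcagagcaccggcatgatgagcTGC
Cldn2: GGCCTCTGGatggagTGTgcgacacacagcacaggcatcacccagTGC
Cldn10: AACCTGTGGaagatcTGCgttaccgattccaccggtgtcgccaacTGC
Cldn22: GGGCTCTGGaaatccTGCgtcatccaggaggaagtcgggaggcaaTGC
Cldn24: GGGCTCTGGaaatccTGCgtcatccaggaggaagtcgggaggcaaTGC
The stretch has 9 residues between its cysteines in each of these 7 claudins. The Cldn10 transcript used starts it with an asparagine codon where the other 6 have glycine, and other transcripts of Cldn10 are not shown. The stretches of Cldn22 and Cldn24 are identical base for base, and 44.7% of the 946 stretches of 50 bases in the Cldn22 transcript also occur in that of Cldn24, so their levels are uncertain, since no source used here says how shared reads were counted. Cldn3 and Cldn4 share 0 of 1210 such stretches. Exons of Cldn3, Dsg2 and Dsp overlap those of Wbscr25, Gm16090 and Gm10129 on the opposite strand, and if strand was not used in counting, reads of such pairs cannot be told apart.

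The leading claudin was Cldn4 in organoids of every gland and another one in tissue. As a share of the TPM summed over the 34 claudin genes of the tables, a measure per transcript length within a library, Cldn4 held 89.6% and 85.7% in SMG organoids in DAM, 83.1% in GEM, 47.01% and 48.8% in SLG organoids and 50.6% in the PG organoid library with TPM. In tissue the Cldn4 share was 0.498% and 0.620% in PG, 0.701% and 0.722% in SLG and 2.005% and 1.95% in SMG. Cldn10 led in SLG tissue with 73.2% and 72.8% and in SMG tissue with 76.96% and 76.02%. PG tissue had a make-up of its own: Cldn22 held 48.7% and 48.8%, Cldn24 14.2% and 15.9%, and Cldn10 22.7% and 20.4%. Organoids of PG and SLG were alike in holding 3 claudins besides Cldn4 at a larger share, with Cldn7 at 18.1% in PG and 19.2% and 19.4% in SLG organoids, Cldn3 at 17.4% and at 9.38% and 7.75%, and Cldn10 at 4.51% and at 14.3% and 14.1%. In SMG organoids in DAM Cldn7 held 1.51% and 2.08%, Cldn3 0.887% and 1.41% and Cldn10 0.918% and 1.56%. The summed claudin TPM behind these shares was 591 and 476 in SMG, 1238 and 1210.5 in SLG and 994 in PG organoids, and 256 and 269 in PG, 480.2 and 557 in SLG and 157 and 147 in SMG tissue. Shares describe single libraries and were not tested.

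**Figure D1:**
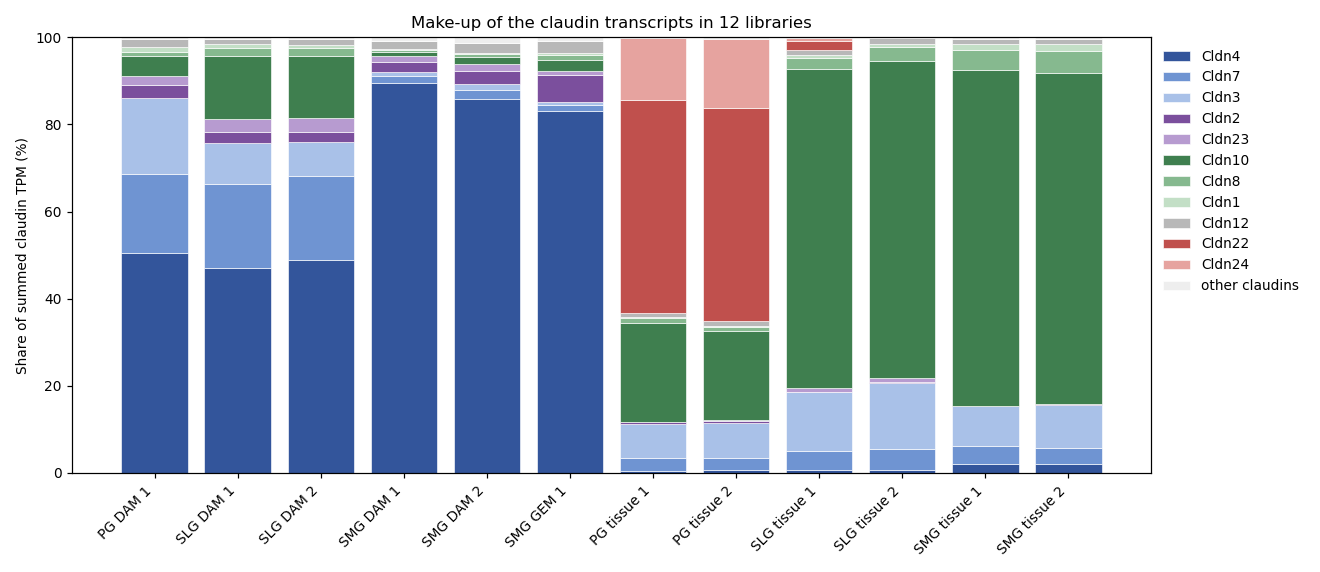
Stacked bars give the share of each claudin in the summed claudin TPM (%, vertical axis) of 12 libraries, organoids on the left and tissue on the right. Cldn4 takes 47.0% to 89.6% of every organoid bar, Cldn10 takes 72.8% to 77.0% of the SLG and SMG tissue bars, and Cldn22 with Cldn24 takes most of the PG tissue bars.

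The first comparison set organoids in DAM against the tissue of the same gland and asks which junction genes the cultures hold above or below the gland. Claudins split: Cldn2, Cldn4 and Cldn23 were higher in organoids of all 3 glands, Cldn10 was lower in all 3, Cldn12 was called in none, and the other 4 tested went by gland. No desmosome gene tested was called lower in any gland, though Dsg2 in SMG and Pkp2 in PG had negative log2 fold changes short of a call. Of the 27 members tested, 17 were called higher and 2 lower in PG organoids, against 25.1% higher and 22.1% lower among all 14459 genes. In SLG organoids 12 were higher and 3 lower, against 20.6% and 18.1% of all genes, and without SLG tissue replicate 1 the counts were 11 and 3, Pkp3 being lost. In SMG organoids 14 were higher and 6 lower, against 22.9% and 23.2%. The median log2 fold change of the members was 1.34 in PG, 0.83 in SLG (0.75 without SLG tissue replicate 1) and 1.08 in SMG, beside medians over all genes of 0.08, 0.03 and 0.02. Scaled by whole-library totals, the counts higher and lower were 25 and 0 in PG, 21 and 1 in SLG and 21 and 4 in SMG, and with totals of the tested genes SLG had 19 and 1. Called higher in all 3 glands were 11 members, lower in all 3 was 1, and 6 were called in none (Cldn12, F11r, Marveld2, Cgn, Dsg2 and Pkp2), beside 11.8%, 11% and 34.9% of all genes. Among the 11 were Cldn23 and Pkp3, whose SLG calls stood at the threshold. The 3 comparisons use separate libraries but 1 model.

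**Figure D2:**
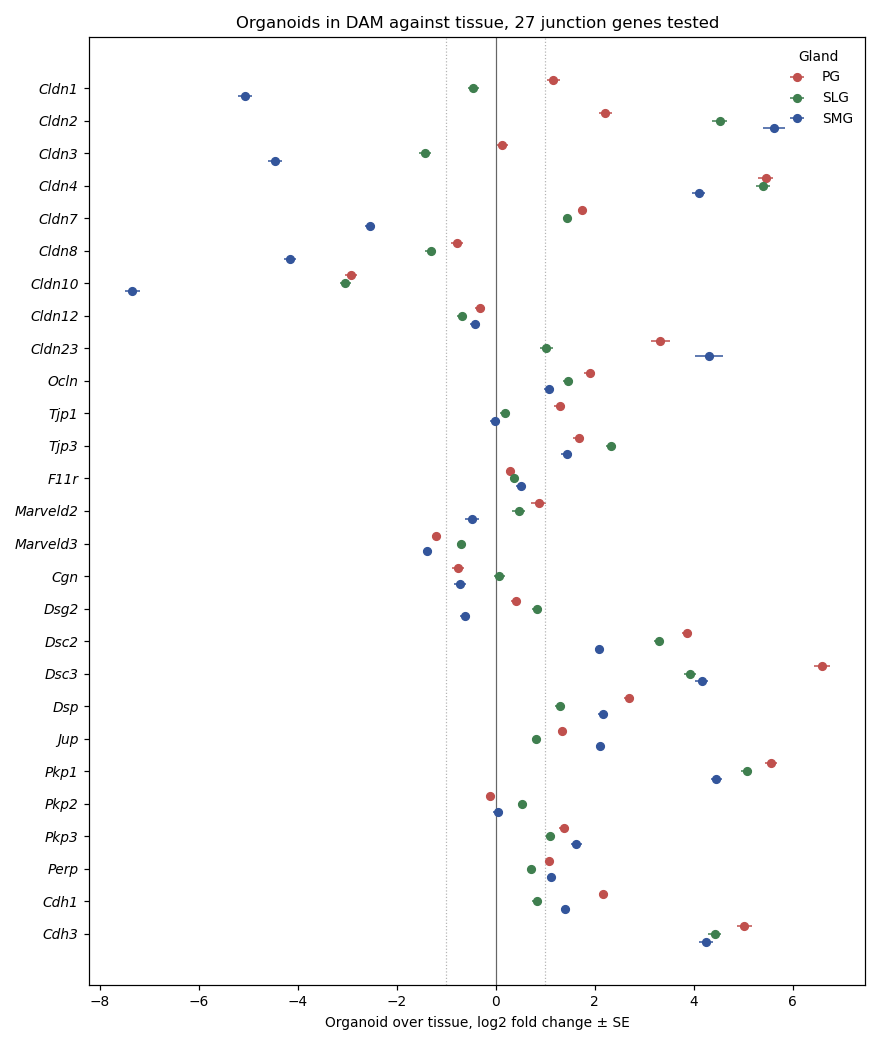
Log2 fold change of organoids in DAM over tissue with its SE (horizontal axis) for the 27 members tested, 1 colour for each gland, with dotted lines at −1 and 1. The SMG points of Cldn1, Cldn3, Cldn7, Cldn8 and Cldn10 lie at −2.54 or below, apart from those of PG and SLG, while Cldn4, Dsc3, Pkp1 and Cdh3 lie at 3.93 or above in all 3 glands.

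Cldn4, a claudin that tightens the barrier against sodium, was among the most abundant members of every culture. It was at 424 and 333 CPM in PG organoids against 7.65 and 10.2 CPM in PG tissue. SLG organoids had 471 and 477 CPM against 11.8 and 11.6 CPM in SLG tissue, and SMG organoids had 519 and 412 CPM against 27.1 and 26.8 CPM in SMG tissue. The lowest organoid library (333 CPM) lay far above the highest tissue library (27.1 CPM), and log2 fold changes were 5.46 ± 0.15 in PG, 5.40 ± 0.14 in SLG and 4.10 ± 0.14 in SMG (± SE, adjusted p = 1.37e-14, 1.17e-14 and 1.15e-13). Cldn2 forms channels for cations and water. It had 39.2 and 43.5 CPM in PG organoids against 8.77 and 9.61 in PG tissue, 41.4 and 35.1 CPM in SLG organoids against 1.88 and 1.60 in SLG tissue, and 20.9 and 23.02 CPM in SMG organoids against 0.465 and 0.411 in SMG tissue. Organoids lay within 20.9 to 43.5 CPM and tissues within 0.411 to 9.61 CPM, and the log2 fold change ran from 2.22 ± 0.12 in PG through 4.53 ± 0.15 in SLG to 5.63 ± 0.22 in SMG. Cldn23, a less studied claudin of lining epithelia, had 17.1 and 14.5 CPM in PG organoids against 1.22 and 2.05 in PG tissue and 8.28 and 8.16 CPM in SMG organoids against 0.523 and 0.274 in SMG tissue. SLG tissue expressed it too, at 16.8 and 16.4 CPM against 31.8 and 33.1 CPM in its organoids. There the log2 fold change of 1.03 stood on the threshold. It was 0.95 to 0.99 without SLG organoid 2, SMG organoid 1 or 2 in DAM, or PG organoid 1 or 3. The test DESeq2, and edgeR with DESeq2's size factors, each gave 0.97, short of a call.

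Cldn10, a channel-forming claudin whose 2 first exons give a cation and an anion form that gene counts do not separate, had the most negative log2 fold change of the tested members in each gland. PG organoids had 19.7 and 25.6 CPM against 182 and 175 CPM in PG tissue, SLG organoids 74.7 and 72.3 CPM against 640.5 and 612 CPM in SLG tissue, and SMG organoids 2.79 and 3.93 CPM against 543 and 546 CPM in SMG tissue. No organoid library reached the lowest tissue library, and the log2 fold changes were −2.93 ± 0.12 in PG, −3.03 ± 0.12 in SLG and −7.35 ± 0.15 in SMG, with adjusted p = 1.68e-12, 1.04e-12 and 4.16e-16. With whole-library totals the PG value was −0.93 and no longer past the fold threshold. Beside it, 6 acinar marker genes summed to 527 to 567 CPM in PG, 529.6 to 588 in SLG and 855 to 907 in SMG organoids, against 9201 to 9489 CPM in PG, 4266 to 4597 in SLG and 6529 to 6669.6 in SMG tissue. The SMG organoid sum was mostly Aqp5, the water channel of acini, at 796 and 727 CPM in SMG organoids against 843 and 868 CPM in SMG tissue. The other 5 summed to 399 to 433 CPM in PG, 393 to 424 in SLG and 111 to 129 in SMG organoids, against 8339 to 8554 CPM in PG, 2944 to 3397 in SLG and 5661 to 5827 in SMG tissue. Slc12a2 made up most of these 5 in organoids, at 352 and 372 CPM in PG, 354 and 328 in SLG and 85.8 and 106 in SMG. Lpo overlapped between SLG (6.58 and 5.98 CPM) and SMG organoids (6.41 and 4.58 CPM). The part of these genes in the Cldn10 difference was not tested.

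Apart from Cldn4, at 519 and 412 CPM in SMG organoids, the claudins known mostly as sealing proteins were Cldn1, Cldn3, Cldn7 and Cldn8. Of these SMG organoids held little, and PG and SLG organoids lay nearer to their tissue. Cldn3 was at 3.59 and 4.74 CPM in SMG organoids against 87.6 and 94.4 CPM in SMG tissue, a log2 fold change of −4.45 ± 0.14. In PG organoids it was at 102 and 87.97 CPM against 84.4 and 93.6 CPM in PG tissue (0.14 ± 0.12), and in SLG organoids at 65.5 and 52.8 CPM against 158 and 172 CPM in SLG tissue (−1.42 ± 0.12). PG groups overlapped, and SLG organoids lay below their tissue, a call lost with library totals as the scaling (−0.73 with tested genes and −0.32 with whole libraries). Cldn7, found along the sides of epithelial cells as well as in the junction, had 109.7 and 96.6 CPM in PG organoids against 31.6 and 32.1 in PG tissue and 139 and 137 CPM in SLG organoids against 51.2 and 54.4 in SLG tissue. SMG organoids had 6.36 and 7.22 CPM of it against 39.96 and 38.7 CPM in SMG tissue. The direction was thus higher in PG (1.74 ± 0.09) and SLG (1.44 ± 0.08) and lower in SMG (−2.54 ± 0.10), where whole-library totals gave −0.48 and no call. Cldn1, which the epidermal water barrier needs, also went both ways. PG organoids had 17.9 and 18.6 CPM against 7.36 and 9.45 in PG tissue, a log2 fold change of 1.17 ± 0.13 that was 0.997 without PG tissue replicate 1. SMG organoids had 1.26 and 1.09 CPM against 38.3 and 40.6 in SMG tissue (−5.07 ± 0.14), and SLG organoids 15.7 and 15.7 CPM against 23.2 and 21.6 in SLG tissue (−0.45, not past the fold threshold). Cldn8, a claudin of tight segments of the kidney tubule, had 4.71 and 4.96 CPM in SMG organoids against 80.3 and 91.7 in SMG tissue, a log2 fold change of −4.16 ± 0.13. In PG organoids it was at 10.6 and 11.1 CPM against 18.8 and 19.5 in PG tissue (−0.77, not called), and in SLG organoids at 25.1 and 21.8 CPM against 54.8 and 66.1 in SLG tissue (−1.31, lost with library totals at −0.61 and −0.21). Cldn12, a broadly expressed claudin, stayed within 22.8 to 44.3 CPM in all 14 libraries and was not called in any comparison.

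**Figure D3:**
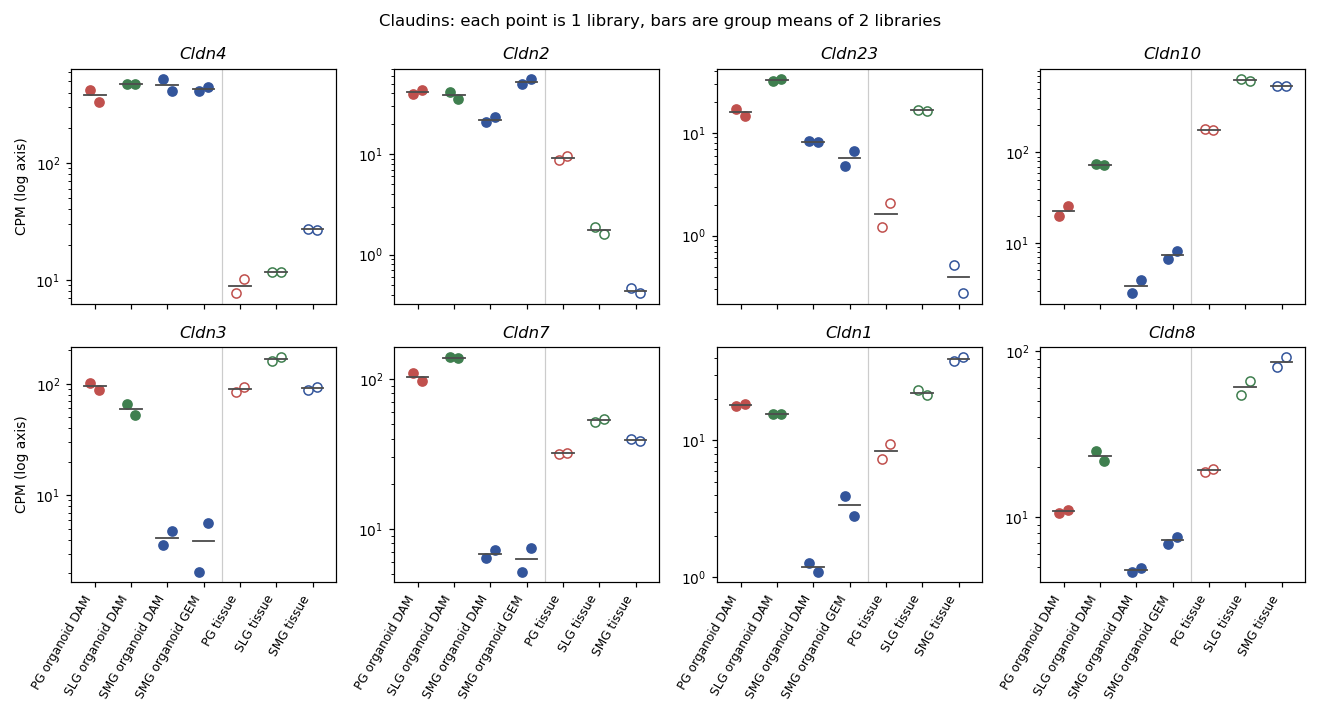
CPM on a log axis (vertical) of 8 claudins in 7 groups, organoids left of the line and tissue right of it, with 1 point for each library and a bar for the mean of 2. Cldn3 lies at 2.08 to 5.66 CPM in the 4 SMG organoid libraries and at 52.8 CPM or above in every other library, while Cldn4 lies at 333 to 519 CPM in the 8 organoid libraries.

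Cldn3 and Cldn4 lie 39279 bases apart on chromosome 5 and parted in SMG organoids. In counts, Cldn4 stood above Cldn3 by 145 and 86.8 times in SMG organoids in DAM, by 4.17 and 3.79 times in PG organoids and by 7.19 and 9.03 times in SLG organoids. In tissue the same ratio was 0.0906 and 0.109 in PG, 0.0743 and 0.0677 in SLG and 0.309 and 0.284 in SMG. The 250 bases before the start of each gene are shown for this pair because they differ in level by so much in one gland. They were taken from the RefSeq promoter table of GRCm38.p6, at chr5:134985964-134986213 on the plus strand for Cldn3 and chr5:134946935-134947184 on the minus strand for Cldn4, with the GC box GGGCGG (either strand) in capitals.
Cldn3: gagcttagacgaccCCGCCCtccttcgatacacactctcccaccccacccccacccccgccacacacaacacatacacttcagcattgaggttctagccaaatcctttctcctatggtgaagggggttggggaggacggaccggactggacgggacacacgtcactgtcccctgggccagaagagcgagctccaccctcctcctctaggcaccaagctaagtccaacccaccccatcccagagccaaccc
Cldn4: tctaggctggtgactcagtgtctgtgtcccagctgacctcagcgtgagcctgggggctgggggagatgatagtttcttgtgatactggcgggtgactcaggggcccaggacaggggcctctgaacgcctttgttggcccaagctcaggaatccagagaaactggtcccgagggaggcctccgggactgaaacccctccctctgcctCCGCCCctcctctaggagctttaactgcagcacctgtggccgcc
Each holds 1 GC box, the site that Sp-family factors bind, which 32.9% of the 27025 promoters of the table hold in this window. Promoters of 21 of the 37 members were in the table, and 13 of these held it. The grainyhead-like motif AACCNGTT, searched on both strands, was in neither window, and was in 2 of the 21 members (Cgn and Cldn5) and in 1.71% of all promoters. TATAAA was in neither window, in Marveld2 and Cldn2 among the members, and in 13.0% of all promoters. CACCTG, the E-box of Snail-type repressors, was in Cldn4, Cldn6, F11r and Tjp3 and in 17.1% of all promoters. These matches describe letters and not binding.

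Cldn22 and its neighbour Cldn24, 1676 bases apart on chromosome 8, marked PG tissue. Cldn22 had 2 and 0 counts in PG organoids against 8393 and 8554 counts in PG tissue, which is 409 and 439 CPM. SLG tissue had 18.8 and 0.246 CPM in replicates 1 and 2, SMG tissue had 0.116 and 0 CPM, and the other 6 organoid libraries had 0. The level in SLG tissue replicate 1 was 4.43% of the PG mean, beside 5.4% for Amy1 and 5.24% for Dnase1 in that library, and in replicate 2 it was 0.0579%. Cldn24 followed, with 79.6 and 95.3 CPM in PG tissue, 3.67 and 0.0491 CPM in SLG tissue, 4.19% and 0.0562% of the PG mean, and 0 in SMG tissue and in all 8 organoid libraries. Given the shared stretches of these 2 genes, their separate levels are uncertain, and Cldn22 also overlaps exons of Wwc2 on the other strand, a gene at 61.4 and 61.9 CPM in PG tissue and 57.97 and 55.2 CPM in SMG tissue. Both had libraries at 0 and were left out by the filter used here. Cldn22 passed edgeR's own filter through PG tissue, where it was high, so a test with that filter adds no support to these counts. With it, PG organoids against PG tissue was called, a call that for this reason adds no support. By the quasi-likelihood test, SLG organoids against SLG tissue (adjusted p = 0.0596) and SMG organoids against SMG tissue (0.852) were not called. Between tissues, PG against SMG (0.0516), PG against SLG (0.0604) and SLG against SMG (0.297) were not called either.

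Other claudins were rare. Cldn5, the main claudin of blood vessel endothelium, had a count of 0 in all 8 organoid libraries and 1.41 and 2.11 CPM in PG, 0.956 and 0.712 in SLG and 0.987 and 1.16 in SMG tissue. Against the floor of 3 counts in each organoid library, PG tissue was at least 40.1-fold higher, SLG tissue at least 21.2-fold and SMG tissue at least 25.6-fold. Of the 7 endothelial markers, Kdr, Emcn and Tie1 were also at 0 in all 8 organoid libraries and Cdh5 in 7, while Pecam1 was at 0.293 to 0.872 CPM, Plvap at 0.0368 to 0.618 CPM and Tek at 0 to 0.675 CPM. Cldn6, best known from embryonic epithelia, and Cldn15, a cation channel of the gut, were likewise at 0 in organoids and at 0 to 0.465 CPM and 0 to 1.23 CPM in tissue. Cldn11, known from myelin and the testis, went the other way, with 1.06 and 0.507 CPM in PG and 0.822 and 0.739 CPM in SLG organoids, 0.0559 and 0 in SMG organoids in DAM, and 0 in the 6 tissue libraries. PG organoids were at least 5.21-fold and SLG organoids at least 9.22-fold above their tissue by the same floor. Cldn9, a claudin of the inner ear, reached at most 0.274 CPM, and Cldn18, a claudin of stomach and lung, had a count of 0 in all 14 libraries.

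Among the 7 other tight junction proteins, Ocln and Tjp3 were called higher in organoids of all 3 glands, and of the others only Tjp1 and Marveld3 were called in any. Ocln, which encodes occludin, had 72.3 and 58.1 CPM in PG organoids against 18.1 and 18.1 in PG tissue, 83.9 and 86.3 CPM in SLG organoids against 31.4 and 32.97 in SLG tissue, and 56.2 and 51.2 CPM in SMG organoids against 24.6 and 26.02 in SMG tissue. Log2 fold changes were 1.90 ± 0.10, 1.46 ± 0.10 and 1.08 ± 0.10 in PG, SLG and SMG. Tjp3, the scaffold ZO-3 beneath the strands, had 93.8 and 82.5 CPM in PG organoids against 28.5 and 28.5 in PG tissue, 108 and 100.3 CPM in SLG organoids against 18.9 and 23.7 in SLG tissue, and 66.5 and 64.5 CPM in SMG organoids against 24.7 and 23.4 in SMG tissue, with log2 fold changes of 1.68 ± 0.10, 2.34 ± 0.10 and 1.43 ± 0.11. Its exons overlap those of Apba3 on the other strand. Tjp1, the scaffold ZO-1, was called in PG alone, where organoids had 137 and 106 CPM against 49.8 and 52.2 CPM in tissue (1.29 ± 0.11), while SLG and SMG had log2 fold changes of 0.18 and −0.02 (adjusted p = 0.117 and 0.889). Marveld3, a relative of occludin, had 26.1 and 23.7 CPM in PG organoids against 58.6 and 59.3 in PG tissue and 23.2 and 23.02 CPM in SMG organoids against 62.4 and 56.96 in SMG tissue, calls (−1.20 and −1.38) that whole-library totals turned round to 0.80 and 0.68. Marveld2, the tricellulin of corners where cells meet, F11r, the adhesion protein JAM-A, and Cgn, the scaffold cingulin, had log2 fold changes between −0.76 and 0.87 in the 3 glands and no call.

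Of the desmosomal cadherins, Dsc2 and Dsc3 were higher in organoids of all 3 glands and Dsg2 was called in none. Dsg2, the desmoglein of simple epithelia, had 186 and 159.7 CPM in PG organoids against 146 and 123 in PG tissue, 246 and 245 CPM in SLG organoids against 137 and 149.6 in SLG tissue, and 123 and 133 CPM in SMG organoids against 191 and 200.3 in SMG tissue, with log2 fold changes of 0.41, 0.84 and −0.62 and no call. Dsc2, the most widespread desmocollin, had 378 and 303 CPM in PG organoids against 23.9 and 24.1 in PG tissue (3.87 ± 0.10), 346 and 359.7 CPM in SLG organoids against 37.3 and 37.3 in SLG tissue (3.30 ± 0.09), and 237 and 237 CPM in SMG organoids against 54.1 and 56.6 in SMG tissue (2.09 ± 0.09). Dsc3, the desmocollin of basal layers of stratified epithelia, had the largest log2 fold change of the tested members in PG, 6.60 ± 0.16 (adjusted p = 1.55e-15), with 243 and 226 CPM in PG organoids against 1.85 and 3.19 CPM in PG tissue. SLG organoids had 108 and 105 CPM of it against 6.37 and 8.08 in SLG tissue (3.93 ± 0.13), and SMG organoids had 288 and 297 CPM against 14.9 and 17.8 in SMG tissue (4.16 ± 0.13). As a share of the TPM of 9 desmosomal cadherin genes, Dsg2 held 30.1% and 29.4% in SLG organoids, 15.3% and 16.2% in SMG organoids in DAM and 17.7% in 1 PG organoid library, against 69.0% to 82.1% in the 6 tissue libraries.

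Dsg3, the basal desmoglein of skin and mouth lining that pemphigus antibodies target, was a gene of the cultures. It had 89.9 and 84.3 CPM in PG organoids, 15.4 and 19.5 CPM in SLG organoids and 54.2 and 50.02 CPM in SMG organoids in DAM, against 0 and 0 in PG tissue, 0 and 0.295 in SLG tissue and 0.174 and 0.342 in SMG tissue. With PG tissue at 0, PG organoids were at least 580.0-fold higher by the floor of 3 counts in each library. Dsc1 and Dsg1a, cadherins of the upper layers of skin, were at 0 in all 6 tissue libraries. Dsc1 had 2.33 and 2.19 CPM in PG organoids, 0.0736 and 0.0837 in SLG organoids and 0.685 and 0.730 in SMG organoids in DAM, and Dsg1a had 0.729 and 0.477 CPM in PG organoids, 0 in both SLG organoid libraries and 0.0419 and 0.112 CPM in SMG organoids in DAM. Among organoids in DAM, PG led for each of the 3 genes and SLG had the least. The transcript of Dsg1a shares 31.6% of its stretches of 50 bases with Dsg1b and 18.8% with Dsg1c, so its counts are uncertain. Of the 10 marker genes of stratified and cornified epithelium 7, Krt6a and Ivl among them, had both SLG organoid libraries below all of PG and SMG in DAM, and 3 did not, Krt1, Krt10 and Krt4, of which Krt4 was highest in SLG at 49.6 and 55.8 CPM. Sums over the list, of which Krt6a made up the most, were 852 to 1275 CPM in PG, 273 to 283 CPM in SLG and 793 to 1079 CPM in SMG organoids in DAM, against 2.88 to 8.82 CPM in tissue, and without Krt6a 247 to 371, 67.6 to 74.2 and 276 to 392 CPM in PG, SLG and SMG organoids. Ivl was at 0 in all 6 tissue libraries. Basal duct cell markers summed to 8426 to 9062 CPM in PG, 4267 to 4276 in SLG and 7892 to 8729.7 in SMG organoids, against 102 to 162 CPM in tissue. The part of these cell types in the levels of Dsg3, Dsc1, Dsc3 and Pkp1 was not tested.

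Of the 6 genes on the plaque list, Perp included, 5 rose in PG, 3 in SLG and 5 in SMG organoids, Pkp1 most. Pkp1, a plakophilin of stratified epithelia, had 359 and 307 CPM in PG organoids against 7.40 and 7.04 in PG tissue (5.57 ± 0.12), 456 and 455 CPM in SLG organoids against 13.4 and 14.7 in SLG tissue (5.07 ± 0.11), and 654 and 557 CPM in SMG organoids against 25.3 and 29.4 in SMG tissue (4.46 ± 0.11). Dsp, desmoplakin, which holds the keratin filaments, had the highest level of any member in every organoid library of PG and SMG. Its level was 835 and 722 CPM in PG organoids against 133 and 116 in PG tissue (2.69 ± 0.10), 701 and 700.1 CPM in SLG organoids against 279 and 314 in SLG tissue (1.30 ± 0.10), and 959 and 913 CPM in SMG organoids against 222 and 189.6 in SMG tissue (2.18 ± 0.10). Jup, plakoglobin, which desmosomes and adherens junctions share, had 316 and 287 CPM in PG organoids against 121 and 125 in PG tissue (1.34) and 495 and 445 CPM in SMG organoids against 114 and 103 in SMG tissue (2.11). Its SLG value, 392 and 378 CPM in organoids against 215 and 239.8 CPM in tissue, gave 0.82 (adjusted p = 9.86e-08), below the fold threshold. The broadly expressed plakophilin Pkp3 had 128 and 126 CPM in PG organoids against 51.2 and 49.8 in PG tissue, 87.7 and 80.7 CPM in SLG organoids against 38.4 and 43.6 in SLG tissue, and 165 and 134 CPM in SMG organoids against 51.8 and 44.1 in SMG tissue. The organoids were higher in every library, with log2 fold changes of 1.38, 1.09 and 1.63 in PG, SLG and SMG, of which the SLG value dropped to 0.98 without SLG tissue replicate 1 and to 0.998 without SLG organoid 1. Perp, a membrane protein of desmosomes, had 539 and 544 CPM in PG organoids against 264 and 268 in PG tissue (1.07), 579 and 568 CPM in SMG organoids against 267 and 263 in SMG tissue (1.11), and 0.72 in SLG with no call. Pkp2, the plakophilin of simple epithelia and heart, had −0.11, 0.54 and 0.05 in these glands and no call.

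**Figure D4:**
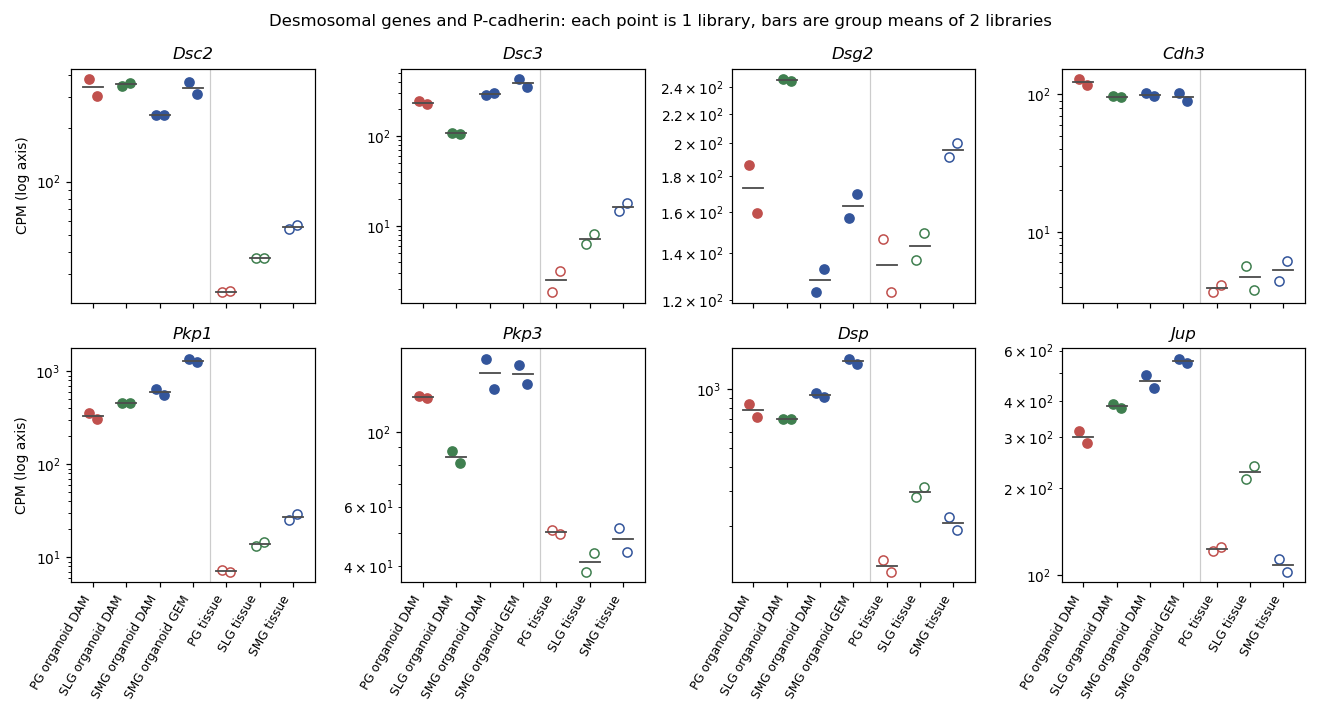
CPM on a log axis (vertical) of 7 desmosomal genes and the P-cadherin gene Cdh3 in 7 groups, organoids left of the line and tissue right of it, with 1 point for each library and a bar for the mean of 2. Dsc2, Dsc3, Pkp1, Pkp3, Dsp, Jup and Cdh3 show no overlap between organoids and tissue, and the Dsg2 levels of 123 to 246 CPM overlap.

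The classical cadherins form the adherens junction below the tight junction. Cdh3, P-cadherin, which basal cells carry, had 129 and 116 CPM in PG organoids against 3.65 and 4.11 in PG tissue, 97.1 and 94.8 CPM in SLG organoids against 5.61 and 3.81 in SLG tissue, and 102 and 96.4 CPM in SMG organoids against 4.41 and 6.09 in SMG tissue. The groups were far apart in all 3 glands, with log2 fold changes of 5.03 ± 0.15, 4.43 ± 0.13 and 4.25 ± 0.15. Cdh1, E-cadherin, which nearly all epithelial cells carry, had 618 and 514 CPM in PG organoids against 129 and 129.5 in PG tissue (2.18 ± 0.09) and 515 and 517 CPM in SMG organoids against 197 and 189.7 in SMG tissue (1.41 ± 0.09). SLG tissue was itself high, and its value of 0.83, from 807 and 775 CPM in SLG organoids and 427 and 496 CPM in SLG tissue, was not past the fold threshold.

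Whether the distance between organoid and tissue differed by gland was tested directly, as an interaction. It did for 17 of the 27 members, beside 42.8% of all 14459 genes, and the count was 17 without SLG tissue replicate 1. Of the 9 claudins tested 8 were called, all but Cldn12. The gap between the glands was widest for Cldn1 (6.24 on the log2 scale), Cldn3 (4.59), Cldn10 (4.42) and Cldn7 (4.28), with adjusted p of 4.51e-13, 1.59e-11, 7.03e-12 and 1.73e-13, and SMG held the lowest value each time. For Cldn2 (3.41) SMG held the highest, and for Dsc3 (2.67) PG did. Desmosomal cadherins were called in 3 of 3 and genes of the plaque list in 3 of 6. Classical cadherins were called in 1 of 2 and other tight junction proteins in 2 of 7.

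Organoids of the 3 glands in the same DAM were compared with each other to see how far junction genes keep a gland's pattern in culture. Cldn1, Cldn3 and Cldn7 were called between SMG organoids and both others, and not between PG and SLG. Dsg3 and Dsc3 were called between SLG organoids and both others, and not between PG and SMG. Cldn8, Cldn10 and Dsc1 were called in all 3 comparisons. Against SMG organoids, PG organoids had 6 of 29 members higher and 0 lower, beside 9.16% higher and 5.55% lower among 16260 genes. For the count of 0, 7 members had a lower value at an unadjusted p under 0.05 in edgeR, and DESeq2 called 0. The 6 were Cldn3 (4.53 ± 0.48), Cldn1 (3.98 ± 0.17), Cldn7 (3.95 ± 0.16), Cldn10 (2.78 ± 0.20), Dsc1 (1.70 ± 0.34) and Cldn8 (1.18 ± 0.12). Between SLG and SMG organoids 7 members were higher and 3 lower in SLG, beside 8.91% and 6.28% of all genes. Higher were Cldn10 (4.49 ± 0.21), Cldn7 (4.39 ± 0.16), Cldn3 (3.87 ± 0.47), Cldn1 (3.78 ± 0.17), Cldn8 (2.32 ± 0.12), Cldn23 (2.03 ± 0.15) and, on the threshold, Marveld2 (1.01, and 0.94 to 0.999 without SMG organoid 2 in DAM, PG organoid 1 or 3, or SLG organoid 1 or 2, with DESeq2, with its size factors in edgeR, with either other filter or with only the groups compared). Lower in SLG were Dsc1 (−3.10 ± 0.45), Dsg3 (−1.53 ± 0.11) and Dsc3 (−1.41 ± 0.08). PG and SLG organoids differed at 3 members higher and 5 lower in PG, beside 5.83% and 3.93%. The same 3 cadherins were higher in PG, Dsc1 at 4.80 ± 0.43, Dsg3 at 2.29 ± 0.11 and Dsc3 at 1.11 ± 0.08. Lower in PG were Cldn10 (−1.72), Pkp2 (−1.16), Cldn8 (−1.14), Cldn23 (−1.06) and Cgn (−1.03), of which 3 were left without PG organoid 3, when Cldn23 was at −0.94 and Cgn at −0.88. Cgn was also lost without SLG organoid 1, at −0.94. These 3 comparisons share libraries. Cldn4, F11r, Cdh1 and Cdh3 were not called between any 2 glands in culture, with Cldn4 log2 fold changes of −0.35 (PG over SLG), −0.28 (PG over SMG) and 0.07 (SLG over SMG). Luminal duct cell markers, whose Krt8 and Krt19 mark the inner duct layer, summed to 4169.8 to 4652 CPM in PG, 5978 to 6115 in SLG and 2884 to 3162 in SMG organoids. Myoepithelial markers summed to 178 to 234 CPM in PG, 76.5 to 82.2 in SLG and 0.545 to 0.814 in SMG organoids. Their part in the claudin differences was not tested.

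Tissue of the 3 glands was compared in the same way. PG tissue lay below both other glands for Cldn1, Cldn8, Cldn10, Dsc3 and Pkp1, and above both for Cldn2. PG against SLG tissue had 2 of 28 members higher and 9 lower, beside 15.7% and 12.6% of 16293 genes. Without SLG tissue replicate 1 the counts were 1 and 12, with Cldn5 lost and Cldn3 (−1.02), Jup (−1.03) and Marveld2 (−1.03) gained, and with totals of the tested genes or of whole libraries they were 1 and 23. Higher was Cldn2 (2.35 ± 0.27) and, on both thresholds, Cldn5 (1.02, adjusted p = 0.0414), a call that held without PG tissue replicate 1 (1.28) or with DESeq2's size factors in edgeR (1.02) and was lost in the other alternatives, so that 1 member was higher without PG tissue replicate 2 or without either SMG tissue library. Lower in PG were Cldn23 (−3.40 ± 0.27), Cdh1 (−1.90 ± 0.08), Cldn10 (−1.87 ± 0.07), Cldn8 (−1.72 ± 0.12), Dsc3 (−1.58 ± 0.26), Cldn1 (−1.47 ± 0.14) and Dsp (−1.30 ± 0.10), and at the threshold Pkp1 (−1.02, and −0.98 or −0.95 without PG tissue 2 or SLG tissue 2) and Tjp1 (−1.02, and −0.99 or −0.89 without PG tissue 1 or SLG tissue 2). PG against SMG tissue had 2 members higher and 7 lower, beside 6.71% and 6.78%. Higher were Cldn2 (4.37 ± 0.35) and Cldn23 (1.99 ± 0.42). Lower were Dsc3 (−2.70 ± 0.26), Cldn1 (−2.23), Cldn8 (−2.17), Pkp1 (−1.92), Cldn10 (−1.61), Cldn4 (−1.60) and Dsc2 (−1.20). SLG against SMG tissue had 4 members higher and 2 lower, beside 8.38% and 11.9%, and 4 and 1 without SLG tissue replicate 1. Cldn23 led with 5.39 ± 0.34, followed by Cldn2 (2.03 ± 0.37), Cdh1 (1.32 ± 0.08) and Jup (1.13 ± 0.08), and Cldn4 (−1.15) and Dsc3 (−1.11, −0.94 without SLG tissue replicate 1 and −0.98 without SMG tissue replicate 2) were lower. Scaled by totals of the tested genes this last comparison had 17 higher and 0 lower, and by whole-library totals 16 and 0, since these moved the median of all genes by 1.09 and 0.98.

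Between the media, few junction genes of SMG organoids were called, all lower in DAM. DAM against GEM had 4 of 29 members lower and 0 higher, beside 1.15% lower and 1.81% higher among 16260 genes. For the count of 0, 1 member, Cldn23, had a higher value at an unadjusted p under 0.05 in edgeR (0.56, adjusted p = 0.0322), and DESeq2 called 0, while Cldn3 was called higher without GEM replicate 3. Pkp1 was at 654 and 557 CPM in DAM against 1364 and 1253 CPM in GEM, with a log2 fold change of −1.07 ± 0.10 (adjusted p = 6.21e-05). Cldn2 was at 20.9 and 23.02 CPM in DAM against 49.7 and 55.2 CPM in GEM (−1.21 ± 0.11, adjusted p = 6.98e-05). Both were apart in every library. Cldn1 had 1.26 and 1.09 CPM in DAM against 3.92 and 2.78 in GEM (−1.46 ± 0.17), and Cldn10 had 2.79 and 3.93 CPM in DAM against 6.74 and 8.22 in GEM (−1.11 ± 0.20), both low beside PG and SLG organoids. Short of the fold threshold, Dsg3 had 54.2 and 50.02 CPM in DAM against 110.4 and 96.2 in GEM (−0.94 ± 0.10, adjusted p = 2.28e-04). Of the 11 desmosomal genes tested 7 had an adjusted p under 0.05 with a lower value in DAM, beside 12.1% of all genes, Dsp among them with 959 and 913 CPM in DAM against 1427 and 1345 CPM in GEM (−0.52). Over the 29 members tested 21 had a negative log2 fold change, beside 49.1% of all genes, 13 of these had an adjusted p under 0.05, and the median of the 29 was −0.21 beside 0.01 for all genes. Cldn4 had 0.16, Cldn3 0.13 and Cldn7 0.14, with adjusted p of 0.424, 0.89 and 0.588. Near the threshold, Pkp1 had −0.96 without DAM replicate 2 and −0.995 with either kind of totals as scaling, and Cldn10 had −0.93 without GEM replicate 3 and −0.89 without DAM replicate 1. Of the cell type markers, the sum of acinar genes was 855 to 907 CPM in DAM against 1282 to 1294 CPM in GEM, or 111 to 129 against 276 to 295 CPM without Aqp5, that of stratified genes 793 to 1079 against 1355 to 1620.1 CPM, and that of basal duct genes 7892 to 8729.7 against 8592 to 8638 CPM, and their part in these differences was not tested.

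**Figure D5:**
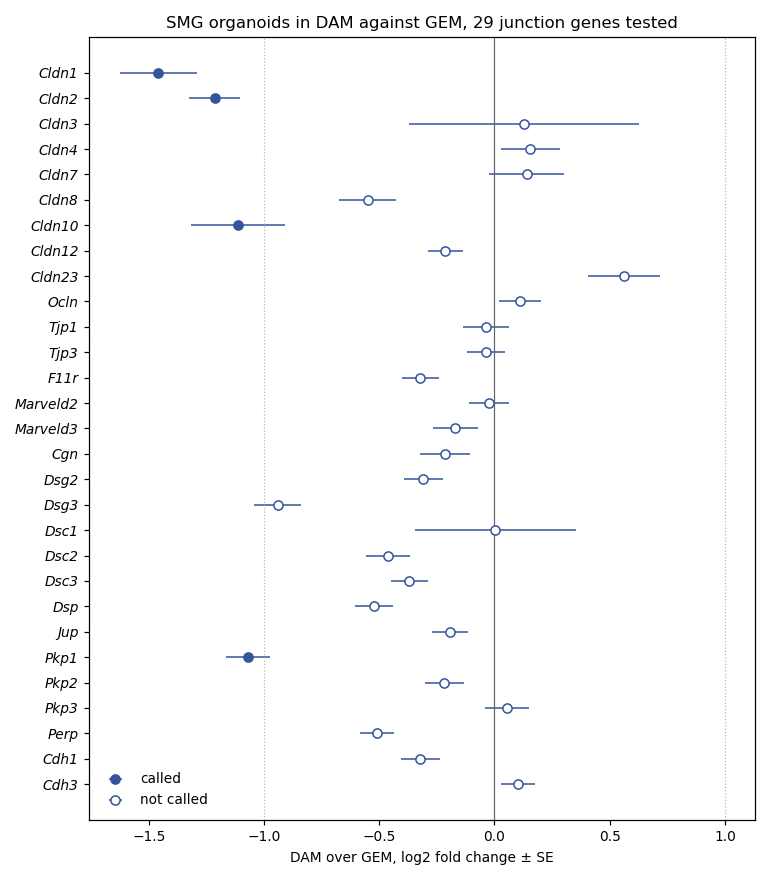
Log2 fold change of SMG organoids in DAM over GEM with its SE (horizontal axis) for the 29 members tested, with filled points for called genes and dotted lines at −1 and 1. Cldn1, Cldn2, Cldn10 and Pkp1 lie at −1.07 or below, and no point lies above 1.

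Other junction genes stood beside these as a backdrop, from lists that do not overlap the members. Of 7 remaining desmosome and plakin genes 3 were tested between organoids and tissue, and the plakins Ppl and Evpl, which anchor keratin at the cell border, were higher in organoids of all 3 glands (Ppl 1.89, 2.18 and 2.54 and Evpl 3.20, 2.12 and 3.46 in PG, SLG and SMG). Of 10 adherens junction genes tested 8 were higher and 1 lower in PG organoids, 4 and 1 in SLG organoids and 7 and 1 in SMG organoids, with Nectin1, an adhesion molecule of the immunoglobulin family, at 3.83, 2.73 and 4.34. The 17 remaining tight junction and polarity genes tested had 5 higher and 4 lower in PG organoids, 3 and 3 in SLG and 6 and 4 in SMG, which is 29.4% and 23.5%, 17.6% and 17.6%, and 35.3% and 23.5%. All genes had 25.1% higher and 22.1% lower in PG, 20.6% and 18.1% in SLG and 22.9% and 23.2% in SMG organoids, so this list lay near the share of all genes. Among them Cgnl1, paracingulin, was lower in all 3 glands (−2.49, −1.86 and −2.85), and Jam2, a junctional adhesion molecule also found on vessels, was lower in all 3, least so in SLG (−2.44, −1.80 and −7.01). Of the 4 gap junction connexins tested 2 were higher and 1 lower in PG organoids, and 2 and 2 in SLG and in SMG organoids. Gja1, the widespread connexin 43, was higher in organoids (5.39, 3.26 and 5.08), and Gjb1, connexin 32 of acinar cells, was lower (−6.66, −5.41 and −8.64). Gjb1 was also the only gene of these lists called between the media, with 0.517 and 0.337 CPM in DAM against 1.46 and 2.58 CPM in GEM (−2.20).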

How the data were processed

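Bulk RNA-seq of 14 libraries was analysed from 2 deposited tables, 1 of organoids and 1 of tissue, with 45777 genes each. Per the labels, libraries were made with a stranded total RNA kit, while the methods of the study name a stranded mRNA kit, and no source used here states whether counting took account of strand. The submitters' processing notes name HISAT2, StringTie, DESeq2 and GRCm38 without versions. The read counts per gene were deposited by the authors without normalization. The deposited TPM values, made by the authors per transcript length and library, were used for shares within a library only. Of 42 value columns 26 were used. The other 16, FPKM of all libraries and TPM of the columns numbered 3, were left out. Columns of PG organoids in DAM and SMG organoids in GEM are numbered 1 and 3, and number 3 is in no label, so these were taken by group.

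Counts were tested with edgeR 4.0.16 and limma 3.58.1 in R 4.3.3 (TMM, robust quasi-likelihood fit, 1 coefficient for each group, Benjamini-Hochberg over all genes tested), in models of 8 organoid, 6 tissue and 12 libraries (organoids in DAM and tissue). The distance between organoid and tissue was compared among glands by an F test of the interaction, with a gap above 1 between the 3 log2 fold changes. Scripts were tested on simulated data first. A floor of 3 counts in each library stood for 0 and covers counting error only. Alternatives were DESeq2 1.42.0, its size factors in edgeR, 2 kinds of totals as scaling, 2 other filters, a fit of only the groups compared, a replicate block and leaving out each library. Sequences came from GENCODE M21 transcripts and the RefSeq promoter table. All 37 members are named, and of other lists up to 4 called genes with the smallest adjusted p in a comparison. Members and lists were chosen with earlier results of these data known. Python 3.11.15 with pandas 2.3.3 and numpy 2.4.6 made the tables, and matplotlib 3.10.9 the plots.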

Additional observations from a re-analysis of the deposited data

Results flagged for a closer look

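The following members differed between glands in their log2 fold change of organoids in DAM over tissue, by the test of the interaction. Values are the gap between the largest and the smallest of the 3 glands on the log2 scale. Among claudins the gap was 6.24 for Cldn1, 4.59 for Cldn3, 4.42 for Cldn10, 4.28 for Cldn7, 3.41 for Cldn2, 3.39 for Cldn8, 3.29 for Cldn23 and 1.36 for Cldn4. It was 1.35 for Marveld2 and 1.31 for Tjp1 among other tight junction proteins. Among desmosomal genes it was 2.67 for Dsc3, 1.78 for Dsc2, 1.45 for Dsg2, 1.39 for Dsp, 1.29 for Jup and 1.11 for Pkp1. Cdh1 had a gap of 1.35. Marveld2 and Dsg2 were called between glands here and in no gland's own comparison of organoids with tissue.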

How the results depend on the processing

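Of 108 called values of single members, 89 kept their call under every alternative run and 19 lost it in some, of which 2 turned round: Marveld3 with whole-library totals, at 0.68 in SMG and 0.80 in PG. With totals of the tested genes or of whole libraries, 19 or 21 members were higher and 1 or 1 lower in SLG organoids over tissue, 1 or 0 were lower in PG organoids, 1 or 1 higher and 23 or 23 lower in PG against SLG tissue, and 17 or 16 higher and 0 or 0 lower in SLG against SMG tissue. Members lower in PG organoids over tissue numbered 5 with edgeR's own filter and 6 with no filter, and those in SLG organoids 5 and 5, since these test more genes. Members higher in PG against SLG tissue numbered 1 with the replicate block, 1 with DESeq2 and 1 with only the groups compared. Leaving out 1 library gave 0 to 1 members higher in DAM against GEM, 3 to 5 lower in PG against SLG organoids, 1 to 2 higher in PG against SLG tissue and 1 to 2 lower in SLG against SMG tissue. Deviations of same-numbered libraries correlated at −0.118 to 0.342, not all above 0.1, and the labels name no shared animal or batch, so the numbers were not taken as pairs, and the replicate block ended only the calls of Cldn10 in DAM against GEM (−0.99) and Cldn5 in PG against SLG tissue (1.01). With 2 libraries a group, a member at a few counts cannot be told from 0, and 10 members with a 0 in a library entered the tests between organoids and tissue only with the other filters, which took in 7 (edgeR's own) and 9 (none).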
